A study of Mus musculus with 5 samples.

Results

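The cells described here are the CD8+ T cells that carried the most Tnfrsf9 transcript at 72 h of antigen stimulation, in culture with dendritic cells (DCs) alone or with DCs and myeloid-derived suppressor cells (MDSCs). A cell was taken as Tnfrsf9-high when its adjusted Tnfrsf9 count, the whole number recovered from the deposited natural log value, was 5 or more, and it was compared with cells of the same library whose count was 0. The cells were thus chosen by Tnfrsf9 itself, whose values are given as a description only, and genes that vary with it from cell to cell are described without a test. By this rule 1254 of the 6868 cells at 72 h were Tnfrsf9-high, out of 13629 cells in the series. There were 672 in the DC library, against 289 cells at 0, and 582 in the library with MDSCs, against 1707 cells at 0.

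All libraries held OT-I CD8+ T cells from spleen and lymph nodes of strain C57BL/6-Tg(TcraTcrb)1100Mjb/J. These cells carry 1 transgenic T cell receptor, which recognises the ovalbumin peptide SIINFEKL. The T cells were cultured with DCs loaded with that peptide, with or without MDSCs, sorted by FACS and put through droplet single-cell RNA sequencing (10x Genomics). The series has 5 libraries: cells at 0 h, and at 24 h and at 72 h 1 library from culture with DCs and 1 from culture with DCs and MDSCs. The source and number of the DCs and MDSCs, the number of mice and the ages are not given in the sources used here. Each condition was 1 library, so no test was run, no replicate error is available, and a difference between the DC library and the library with MDSCs cannot be told apart from a difference between those 2 preparations.

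Tnfrsf9 encodes 4-1BB (CD137), a costimulatory receptor of the TNF receptor family. T cell receptor signalling induces it on CD8+ T cells. When it is bound by its ligand, encoded by Tnfsf9 and carried by antigen presenting cells, it recruits TRAF adaptors and activates NF-kB, which favours survival and effector function. Its transcription is therefore widely used as a mark of recent antigen stimulation.

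Levels of a gene are given as adjusted CPM, its summed adjusted counts per 1000000 adjusted counts of the class of cells. Adjusted counts are not molecule counts. The total per cell is nearly constant, so neither the depth of a cell nor a counting error of a level could be recovered. A gene was called higher or lower in Tnfrsf9-high cells when its level differed by 1.5-fold or more and reached 50 CPM in either class.

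Tnfrsf9 lies on chromosome 4 (GENCODE M21, mm10, plus strand, chr4:150914562-150946102). The receptor genes Tnfrsf4 (chr4:156013843-156016612, plus strand) and Tnfrsf18 (chr4:156026164-156028895, plus strand), lie on the same chromosome. The promoter windows of Tnfrsf9, Tnfrsf4 and Il2ra are shown because the rule rests on the first gene and the other 2 were higher in Tnfrsf9-high cells of both libraries. Each is the 250 bases before a RefSeq transcript start (GRCm38.p6), on the plus strand, 5′ to 3′. RefSeq gives 2 starts for Tnfrsf9, at chr4:150919905-150920154 for the window of the first and chr4:150927749-150927998 for that of the second. The window of Tnfrsf4 is chr4:156013445-156013694 and that of Il2ra is chr2:11642542-11642791. Capitals mark matches to GGGNNNNNCC (bound by NF-kB), TTCNNNGAA (bound by STAT5) or TGANTCA (bound by AP-1), searched on both strands.
Tnfrsf9, first start: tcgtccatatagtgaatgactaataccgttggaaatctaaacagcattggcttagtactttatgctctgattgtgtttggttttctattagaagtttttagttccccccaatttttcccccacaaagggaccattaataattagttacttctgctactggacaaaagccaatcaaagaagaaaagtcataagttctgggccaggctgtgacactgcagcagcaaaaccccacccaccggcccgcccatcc
Tnfrsf9, second start: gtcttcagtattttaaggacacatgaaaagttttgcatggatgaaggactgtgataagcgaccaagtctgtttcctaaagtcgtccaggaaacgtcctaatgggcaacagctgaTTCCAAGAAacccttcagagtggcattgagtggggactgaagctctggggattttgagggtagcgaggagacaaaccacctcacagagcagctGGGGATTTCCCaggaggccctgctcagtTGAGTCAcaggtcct
Tnfrsf4: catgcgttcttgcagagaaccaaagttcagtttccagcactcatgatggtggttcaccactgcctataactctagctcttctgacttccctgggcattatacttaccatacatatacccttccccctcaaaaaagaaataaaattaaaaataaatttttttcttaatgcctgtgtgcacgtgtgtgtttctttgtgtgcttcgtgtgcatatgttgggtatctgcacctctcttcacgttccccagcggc
Il2ra: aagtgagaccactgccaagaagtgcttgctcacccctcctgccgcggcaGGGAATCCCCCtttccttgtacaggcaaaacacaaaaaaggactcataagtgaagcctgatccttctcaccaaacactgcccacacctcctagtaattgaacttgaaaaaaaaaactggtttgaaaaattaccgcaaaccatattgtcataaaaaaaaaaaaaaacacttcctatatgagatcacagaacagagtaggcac
The second Tnfrsf9 window held TTCCAAGAA 136 bases before the start, GGGGATTTCCC, in which 2 matches to the NF-kB motif overlap, 43 and 42 bases before it, and TGAGTCA 15 bases before it. The Il2ra window held GGGAATCCCCC, also 2 overlapping matches, 201 and 200 bases before the start. No match lay in the first Tnfrsf9 window or in that of Tnfrsf4. Of the 32851 RefSeq windows of this length, 45.8% held the NF-kB motif, 7.02% the STAT5 motif and 6.75% the AP-1 motif. A match is a description of the letters only.

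Tnfrsf9 was spread over a continuous range in both libraries, with no gap at the threshold. In the DC library 289 of 1926 cells (15.01%) were at 0, 965 (50.1%) at 1 to 4 and 672 (34.9%, exact Clopper-Pearson 95% interval 32.8 to 37.1%) at 5 or more. In the library with MDSCs 1707 of 4942 cells (34.5%) were at 0, 2653 (53.7%) at 1 to 4 and 582 (11.8%, 10.9 to 12.7%) at 5 or more. These intervals cover counting error of the cells only. Just outside the threshold, 196 cells of the DC library and 305 of the library with MDSCs had a count of 4, and just inside it 158 and 178 had a count of 5. The median among Tnfrsf9-high cells was 7 with DCs (maximum 44) and 6 with MDSCs (maximum 18), and the mean over all cells was 4.08 and 1.89.

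**Figure D1:**
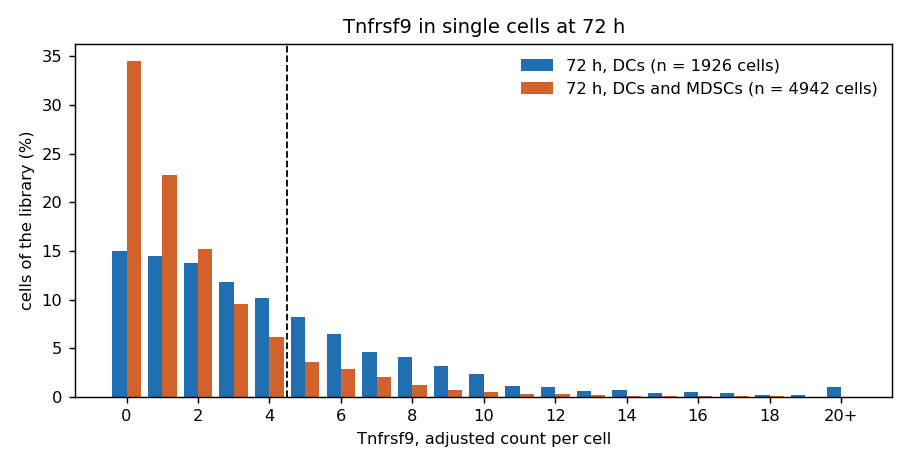
Percent of the cells of each 72 h library (y axis) at each adjusted Tnfrsf9 count (x axis, 20 and above pooled), with DCs in blue and with DCs and MDSCs in orange. The dashed line marks the lower end of the Tnfrsf9-high class, which holds 34.9% of the blue and 11.8% of the orange cells.

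The authors' table of all time points was adjusted separately from the 72 h table. In it 639 of the 672 and 528 of the 582 cells were Tnfrsf9-high again, and the high share at 72 h was 33.2% with DCs and 10.7% with MDSCs. In the same table the high share at 24 h was 24.2% with DCs and 17.1% with MDSCs. At 0 h 2 of 2952 cells reached 5. The 0 h values had a mean of 0.961 and a variance over mean of 0.127. This spread is narrower than counts of molecules would have, so a value of 1 there cannot be read as 1 molecule. Cells at 0 made up 5.89% of the 0 h library, against 17.0% with DCs and 36.3% with MDSCs at 72 h. An adjusted count of 0 at 72 h is therefore not taken as lack of transcript, nor a low count as its presence. Between the separate adjustments, the Tnfrsf9 value was the same in 79.4% of the 72 h cells with DCs and 89.4% with MDSCs.

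The label was checked against marker genes. CD8 T cell markers were measured in both classes: 8 of the 11 listed genes were in the table, all 8 at 10 CPM or more, and none differed by 1.5-fold. The CD8 coreceptor gene Cd8a was at 401 CPM in Tnfrsf9-high cells and 499 CPM in cells at 0 with DCs, and at 593 and 644 CPM with MDSCs. Cd8b1, the other coreceptor chain, was at 717 and 884 CPM with DCs and at 837 and 979 CPM with MDSCs. The high cells were therefore CD8 T cells by these genes in both libraries, as the label says.

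Marker lists of 7 other cell types were at low levels. The granulocyte list (4 of 17 genes in the table) summed to 0.0929 CPM in high cells and 0 in cells at 0 with DCs, where S100a8, S100a9 and Ngp were at 0 in both classes, and to 0.962 and 1.40 CPM with MDSCs. The monocyte and macrophage list (7 of 17) summed to 6.22 and 3.73 CPM with DCs and to 10.5 and 23.3 CPM with MDSCs, of which Cd68 made up 9.19 and 22.2 CPM. With DCs its members Cd14, Itgam and Ms4a7 were at 0 in both classes. The B cell list (4 of 13) summed to between 21.5 and 27.1 CPM in the 4 classes, nearly all of it Cd79b, and the erythroid and platelet list (5 of 10) to at most 3.73 CPM. The NK list (6 of 12) summed to 27.3 and 12.5 CPM with DCs and to 24.7 and 9.68 CPM with MDSCs, and the CD4 and regulatory T cell list (8 of 10) to 38.8 and 19.1 CPM and to 50.4 and 43.8 CPM, with Cd4 itself at 0.26 CPM or less. The dendritic cell list (8 of 15) summed to 215 and 178 CPM with DCs and to 262 and 241 CPM with MDSCs. Cst3 and Batf3, which T cells also express, made up most of it, while Itgax and Zbtb46 stayed at or below 0.44 CPM. Cells with 3 or more markers of 1 of these types were 48 (7.14%) of the high cells and 9 (3.11%) of the cells at 0 with DCs, and 64 of 582 and 157 (9.20%) of 1707 with MDSCs. The dendritic cell list marked most of them, 34 high cells and 8 cells at 0 with DCs and 55 and 146 with MDSCs. As that list holds Cst3 and Batf3, the marked cells cannot all be taken as cells of another type. Without the marked cells 30 of the 31 genes called higher in both libraries and all 7 called lower were called again.

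High cells had more genes above 0. The median was 3333 genes in high cells and 2929 in cells at 0 with DCs, and 3279.5 and 3036 with MDSCs. Conversely, over 3 equal groups of cells ranked by genes above 0, the high share was 27.3%, 36.3% and 41.1% with DCs and 7.58%, 12.0% and 15.7% with MDSCs. Ribosomal protein genes took 36.8% of the adjusted counts in high cells and 39.3% in cells at 0 with DCs, and 37.1% and 41.0% with MDSCs. The part of these differences in the gene results was not tested directly. Levels were then averaged over the 3 groups at equal weight. By these levels, 21 of the 31 genes higher in both libraries and 5 of the 7 lower ones were called again. The higher genes not called again were Asns, Cdk6, Cmtm7, Degs1, Prdx4, Rpn1, Shmt2, Tgfb1, Tmem97 and Tubb6. The lower ones not called again were Ccr7 and H2afv. The log2 ratios of Tnfrsf4 (2.14 with DCs, 0.99 with MDSCs), Il2ra (1.68 and 0.90), Gzmb (1.60 and 0.78) and Tcf7 (-1.67 and -1.04) stayed past 1.5-fold. The 2 libraries shared 17 cell barcodes among the 6868 cells.

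Genes higher in Tnfrsf9-high cells of both libraries included the costimulatory receptor genes Tnfrsf4 and Tnfrsf18, the IL-2 receptor genes Il2ra and Il2rb, Gzma and Gzmb, Mt1 and Mt2, and Asns and Slc3a2 of amino acid metabolism. Lower genes included Tcf7, Ccr7 and Dapl1 of naive and memory T cells and the interferon-induced gene Ifi27l2a. With DCs, 95 genes were higher (4.11% of 2312 measured) and 44 lower (1.9%). With MDSCs, 62 were higher (2.7% of 2298) and 22 lower (0.957%). Of the genes measured in both libraries, 31 were higher in both (1.53% of 2028) and 7 lower in both (0.345%), and none was called in opposite directions. The 31 genes are 32.6% of those higher with DCs and 50% of those higher with MDSCs, and the 7 are 15.9% and 31.8% of the lower lists. Of the 95 genes called higher with DCs, 93 also had a ratio above 1 with MDSCs, and of the 62 called with MDSCs, 61 had a ratio above 1 with DCs. The corresponding numbers for lower genes were 40 of 44 and 19 of 22. Over all genes at 50 CPM or more in either class, the median log2 ratio was 0.03 with DCs and 0.09 with MDSCs. Ratios above 1 were thus the commoner kind among all genes too. Their share was not computed, so these numbers of like direction have no background and are a description only. With MDSCs the split depended on the scaling: 73.8% of the calls were higher ones as given, 61.5% (40 higher, 25 lower) with ratios centred on their median, and 57.8% (63 and 46) with a total that leaves out ribosomal protein and mitochondrial genes.

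**Figure D2:**
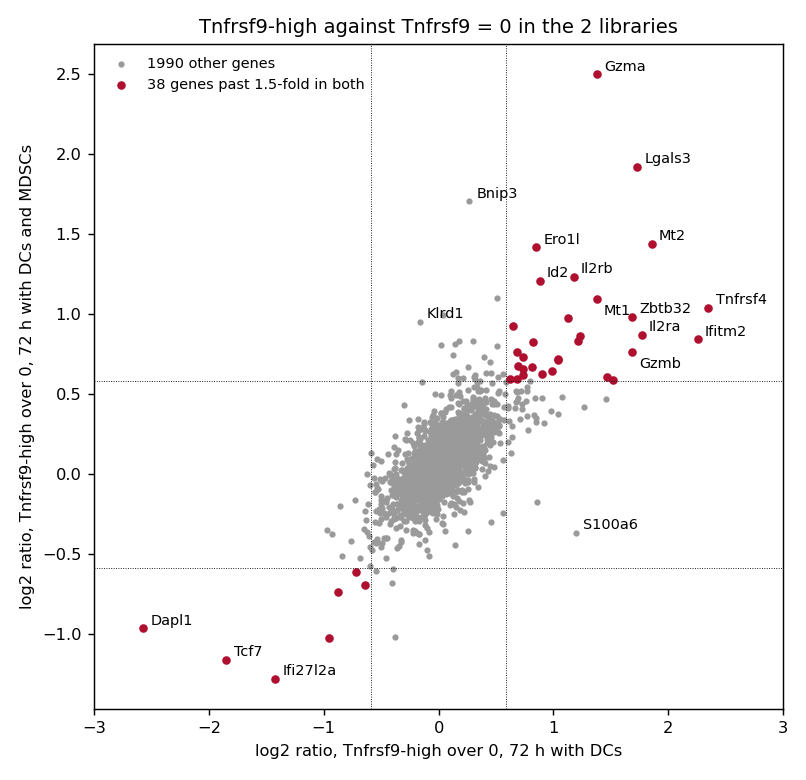
Log2 ratio of each gene's level in Tnfrsf9-high cells over cells at 0, with DCs (x axis) and with DCs and MDSCs (y axis), for genes at 50 CPM or more in both libraries, with dotted lines at 1.5-fold. The red points are the 31 genes higher and the 7 genes lower in both libraries, and S100a6 lies right of the dotted line but below 0 with MDSCs.

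Other receptors of the TNF receptor family were higher in Tnfrsf9-high cells. Tnfrsf4 encodes OX40, a costimulatory receptor induced after activation. Its level was 188 CPM in high cells, 99.3 CPM in cells at 1 to 4 and 36.9 CPM in cells at 0 with DCs (5.09-fold, log2 ratio 2.35), and 95.6, 65.5 and 46.5 CPM with MDSCs (2.06-fold, log2 ratio 1.04). The cells at 0 were thus at a like level in both libraries, and the high cells differed more. Tnfrsf18, which encodes the costimulatory receptor GITR, was at 600, 401 and 302 CPM with DCs (log2 ratio 0.99) and at 560, 424 and 358 CPM with MDSCs (0.65). Tnfrsf8, which encodes CD30, had the larger ratio at low levels, with 20.5 CPM in high cells and 1.76 CPM in cells at 0 with DCs (11.7-fold, log2 ratio 3.55) and 18.2 and 7.94 CPM with MDSCs (2.29-fold, 1.19). Cd27, a receptor of the same family that naive cells already carry, lay the other way without reaching 1.5-fold, at 146 against 205 CPM with DCs and at 88.9 against 120 CPM with MDSCs. The death receptor gene Fas was lower in high cells, at 20.8 against 39.3 CPM with DCs and at 33.5 against 53.5 CPM with MDSCs.

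Over the whole TNF receptor list without Tnfrsf9, 8 members reached 10 CPM in each library. With DCs 4 were higher and Fas was lower, and their log2 ratios had a median of 0.68. With MDSCs 3 were higher and Fas was lower (median 0.23). The median of all genes at that level was 0.13 in each library, and 9.8% of them were higher and 1.85% lower with DCs, against 4.3% and 1.04% with MDSCs. These shares and medians are the background for every list below, whose members were counted at 10 CPM or more.

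The ligand gene Tnfsf9 was at 6.32 CPM in high cells and 5.93 CPM in cells at 0 with DCs and at 5.56 and 2.77 CPM with MDSCs. Lta, which encodes the ligand lymphotoxin alpha, was at 46.4 against 12.1 CPM with DCs, under the 50 CPM limit for a call. With MDSCs it was higher, at 136 against 70.8 CPM. Of the TNF family ligand list, 1 of 3 members was higher and 1, Tnfsf8, lower with DCs (median log2 ratio 0.10). With MDSCs 3 of 5 members were higher and 0 lower (0.94). The receptor's own signalling genes differed little. Of the TRAF adaptor and receptor signalling list, 1 of 16 members was higher and 1 lower with DCs (median log2 ratio 0.19), and none of 13 differed with MDSCs (median 0.09). Traf1, an adaptor of 4-1BB, was at 66.0 against 86.7 CPM with DCs and at 77.5 against 75.8 CPM with MDSCs. Of the NF-kB subunits, inhibitors and targets, 1 of 15 was higher and 2 lower with DCs (median 0.11), and 1 of 17 was higher and 1 lower with MDSCs (median 0.23). Ier3, an early response gene, was the higher one in both, at 111 against 52.5 CPM and at 29.1 against 11.2 CPM. Nfkbia, which encodes an inhibitor of NF-kB, was at 48.0 against 72.4 CPM with DCs and at 51.3 against 46.7 CPM with MDSCs.

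Receptors for IL-2 were higher in Tnfrsf9-high cells of both libraries. Il2ra, which encodes the high-affinity chain CD25, was at 174 CPM in high cells, 115 CPM in cells at 1 to 4 and 50.9 CPM in cells at 0 with DCs (3.41-fold, log2 ratio 1.77), and at 194, 143 and 106 CPM with MDSCs (1.83-fold, 0.87). Il2rb, which encodes the shared signalling chain, was at 209, 141 and 92.4 CPM with DCs (2.26-fold) and at 99.6, 60.1 and 42.4 CPM with MDSCs (2.35-fold). The high cells thus had like Il2ra levels in both libraries, while Il2rb was lower with MDSCs in every class. Of the IL-2 and STAT5 target list, which also holds Il2ra, Gzmb, Tnfrsf4 and Tnfrsf18, 14 of 24 members were higher and 1 lower with DCs (median log2 ratio 0.89), and 10 of 22 were higher and 1 lower with MDSCs (0.53). Cish, a feedback inhibitor induced by STAT5, was at 52.5 against 19.1 CPM with DCs and at 82.0 against 59.2 CPM with MDSCs. Xbp1, a transcription factor of the unfolded protein response that is on the same list, was at 91.3 against 41.9 CPM and at 115 against 58.3 CPM. The lower members were Syt11 with DCs and Pim2 with MDSCs.

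Some genes induced by the T cell receptor were also higher. Of that list, 10 of 18 members were higher with DCs (median log2 ratio 0.84) and 4 of 18 with MDSCs (0.46), namely Il2ra, Bhlhe40, Icos and Nfil3. None was lower, and the remaining members lay within 1.5-fold. Batf3, a transcription factor, was at 49.4 against 18.2 CPM with DCs and at 96.0 against 71.1 CPM with MDSCs. Myc, the growth regulator, was at 47.7 against 23.5 CPM and at 52.0 against 40.7 CPM, and Irf4, which scales with receptor signal strength, at 26.6 against 11.6 CPM and at 23.9 against 17.4 CPM. Nfil3, a transcription factor of effector cells, was at 74.7 against 36.0 CPM with DCs and at 31.5 against 10.0 CPM with MDSCs. Nr4a1, an early reporter of receptor signalling, was at 4.17 CPM or less in high and zero cells of both libraries. Zbtb32, a repressor of cytokine genes, was higher in both libraries at 80.6 against 25.02 CPM and at 93.1 against 47.1 CPM.

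The granzyme genes Gzma and Gzmb were higher in Tnfrsf9-high cells of both libraries. Granzymes are proteases that killer T cells release into their targets. Gzmb was at 2611 CPM in high cells, 1579 CPM in cells at 1 to 4 and 815 CPM in cells at 0 with DCs (3.20-fold, log2 ratio 1.68), and at 3652, 2684 and 2147 CPM with MDSCs (1.70-fold, 0.77). With MDSCs even the cells at 0 were thus above the DC cells at 1 to 4. Gzma was at 252, 148 and 96.8 CPM with DCs (2.60-fold) and at 193, 77.9 and 34.1 CPM with MDSCs (5.66-fold). Gzmc was at 20.7 against 3.07 CPM and at 29.5 against 18.1 CPM, past 1.5-fold in both but under the 50 CPM limit for a call. Most of the cytotoxic and effector list, which holds these 3 genes, lay within 1.5-fold. Of its members, 4 of 18 were higher with DCs (median log2 ratio 0.31) and 5 of 19 with MDSCs (0.15), and none was lower. The other 14 in each library lay within 1.5-fold. Prf1, which encodes the pore-forming protein perforin, was at 2.24 CPM or less in both classes of both libraries. Ifng was at 0.74 against 0.22 CPM with DCs and at 4.06 against 0.07 CPM with MDSCs. The cytokine genes Il2, Ccl3, Ccl4 and Xcl1 were all below 10 CPM in these 4 classes. Granzymes, metallothioneins, the Ifi27 and Ifitm genes and MHC genes are families of similar sequence, and how reads shared by their members were counted is not given.

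Cells split more finely by their Tnfrsf9 count gave graded levels. From cells at 0 through 1 to 2, 3 to 4 and 5 to 9 to 10 or more, Gzmb with DCs was at 815, 1375, 1838, 2346 and 3445 CPM, and with MDSCs at 2147, 2553, 2998, 3455 and 4967 CPM. Tcf7, a transcription factor of naive and memory T cells, went the other way, with 129, 102, 66.5, 39.3 and 25.1 CPM with DCs and 83.6, 67.9, 51.6, 39.3 and 24.7 CPM with MDSCs. The level in cells at 1 to 4 lay between the other 2 classes in both libraries for all 31 genes higher in both and all 7 lower in both. These genes were chosen for their difference between the other 2 classes, so a level between them was likely beforehand and is a description only. Cells at 5 to 9 and at 10 or more both belong to the high class, so the levels also differed within it.

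**Figure D3:**
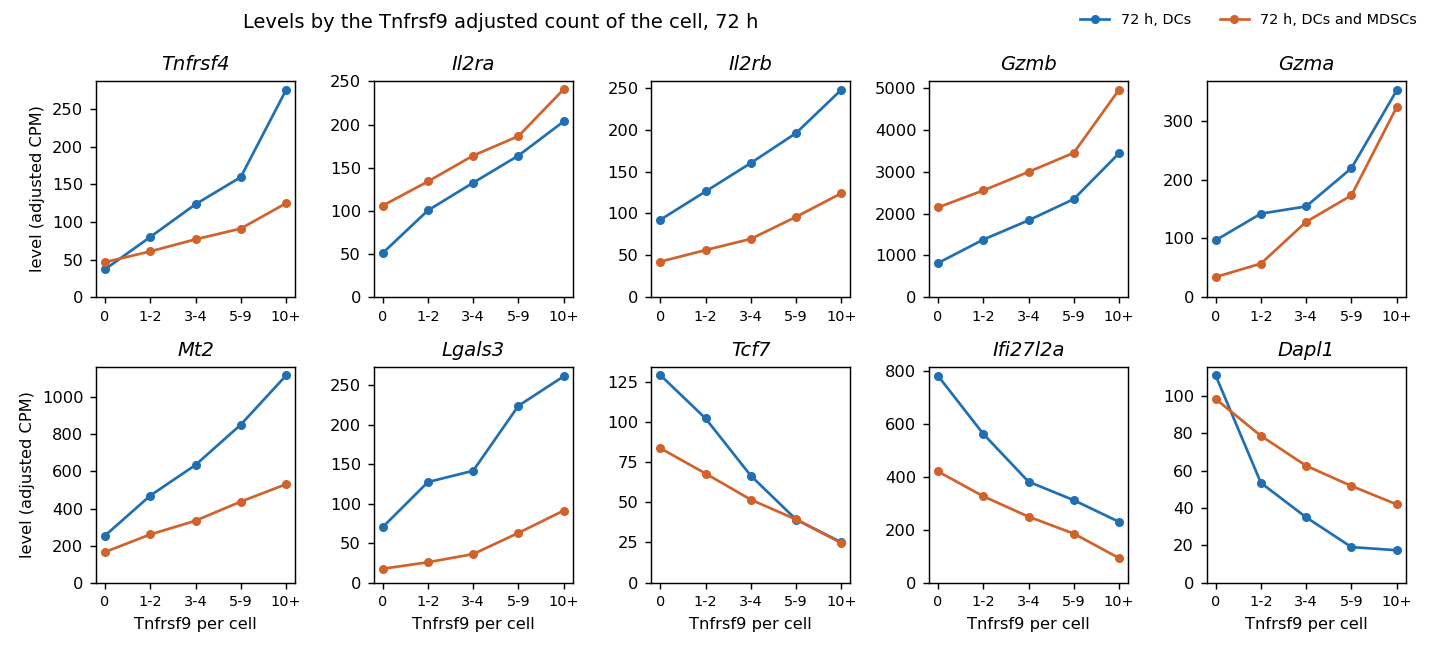
Level in adjusted CPM (y axis) of 10 genes by the adjusted Tnfrsf9 count of the cell (x axis, 5 classes), with DCs in blue and with DCs and MDSCs in orange, each point the level over all cells of the class in 1 library. Levels climb with the Tnfrsf9 count in the 7 panels from Tnfrsf4 to Lgals3 and decline in Tcf7, Ifi27l2a and Dapl1.

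The other genes higher in both libraries fell into several groups. Mt1 and Mt2, which encode metal-binding metallothioneins, were at 1849 against 712 CPM and 917 against 254 CPM with DCs, and at 569 against 266 CPM and 450 against 166 CPM with MDSCs. Lgals3, which encodes the lectin galectin-3, was at 233 against 70.2 CPM with DCs and at 66.7 against 17.6 CPM with MDSCs (3.32-fold and 3.79-fold). Id2, a regulator of effector differentiation, was at 206 against 112 CPM and at 108 against 46.8 CPM. Vim, the intermediate filament vimentin, was at 1302 against 783 CPM and at 1350 against 855 CPM. Tgfb1, which encodes the cytokine TGF-beta, was at 140 against 89.3 CPM and at 155 against 81.3 CPM. Ifitm2, an interferon-inducible membrane gene, was at 81.7 against 17.1 CPM with DCs and at 99.1 against 55.3 CPM with MDSCs. Ero1l, an oxidase of protein folding that hypoxia also induces, was at 444 against 246 CPM and at 71.5 against 26.7 CPM. The genes of the 31 whose levels are not given in the text were Cmtm7, Ctla2b, Degs1, Prdx4, Rpn1, Shmt2, Stk39, Tmem97 and Tubb6. Emilin2, an extracellular matrix gene, was among the largest ratios in the DC library, at 86.2 against 9.88 CPM (8.73-fold). With MDSCs it was at 35.3 against 2.77 CPM, under the 50 CPM limit for a call.

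Endoplasmic reticulum and amino acid genes formed another group. Hspa5, the main chaperone of the endoplasmic reticulum, was at 134 against 65.2 CPM with DCs and at 123 against 74.6 CPM with MDSCs, and Pdia6, a disulfide isomerase, at 133 against 82.3 CPM and 164 against 103 CPM. Of the chaperone and unfolded protein response list, 9 of 26 members were higher with DCs and 5 of 26 with MDSCs, and none was lower. Asns, asparagine synthetase, was at 52.1 against 22.2 CPM and at 109 against 60.0 CPM. Slc3a2, the shared chain of amino acid transporters, was at 121 against 59.0 CPM and at 159 against 96.8 CPM, and its partner Slc7a5 at 43.2 against 11.4 CPM and at 36.1 against 20.02 CPM. Of the integrated stress response and serine synthesis list, 17 of 28 members were higher with DCs (median log2 ratio 0.61) and 7 of 27 with MDSCs (0.42). Of the amino acid and nutrient transporters, 8 of 17 were higher with DCs (0.54) and 9 of 16 with MDSCs (0.71). No member of either list was lower. Cholesterol and fatty acid synthesis genes were higher for 10 of 30 members with DCs (0.42) and 10 of 28 with MDSCs (0.50).

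Glycolysis and ribosome biogenesis differed in their counts between the libraries. Of the glycolysis list, 2 of 23 members were higher and 1 lower with DCs (median log2 ratio 0.13), and 13 of 21 were higher and 1 lower with MDSCs (0.64). Ldha, lactate dehydrogenase, was at 3791 against 3467 CPM with DCs and at 2383 against 1541 CPM with MDSCs. Tpi1, triosephosphate isomerase, was at 1634 against 1607 CPM and at 875 against 499 CPM. For both genes the Tnfrsf9-high cells with MDSCs stayed below both classes of the DC library. Of the ribosome biogenesis and MYC target list, 16 of 39 members were higher with DCs (0.54) and 2 of 40 with MDSCs (0.36), and none was lower. A ratio above 1, of any size, was found for 35 of the 39 with DCs and 39 of the 40 with MDSCs. The difference between the libraries could not be tested with 1 library each.

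**Figure D4:**
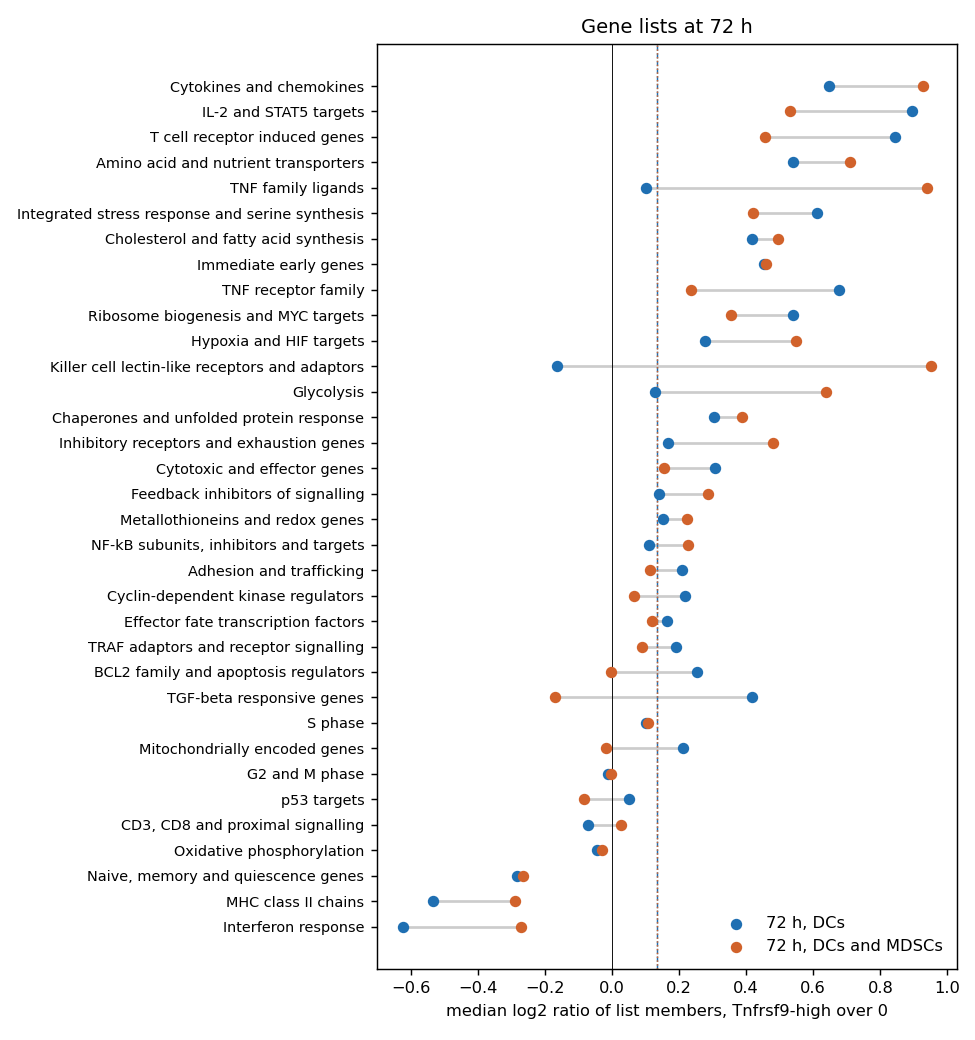
Median log2 ratio of level in Tnfrsf9-high cells over cells at 0 (x axis) for the members of each gene list at 10 CPM or more (y axis, lists), with DCs in blue and with DCs and MDSCs in orange. The dashed line (DCs) and the dotted line (DCs and MDSCs) are the medians of all genes at that level, 0.13 in each library. The interferon response, MHC class II and naive, memory and quiescence lists lie below 0 in both. So do, close to 0, the oxidative phosphorylation and the G2 and M phase lists.

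Few genes of the S phase and the G2 and M phase lists differed between the classes. Of the S phase list 1 of 57 members was higher with DCs and 0 of 54 with MDSCs, and of the G2 and M phase list 1 of 66 was higher and 1 lower with DCs and 0 of 63 differed with MDSCs. The list medians of log2 ratio were 0.10 and 0.11 for S phase and -0.01 and -0.00 for G2 and M phase. The G2 and M median, and the S phase median with DCs, took the other sign in some of 9 alternative settings. Of the cyclin-dependent kinase regulators, 5 of 20 were higher with DCs (Ccnd3, Ccne2, Cdk6, Cdkn1a and Cdc25a) and 1, the inhibitor gene Cdkn1b, was lower, while 1 of 19, Cdk6, was higher with MDSCs and none was lower. Cdk6, a kinase of early G1 phase, was at 105 against 38.0 CPM with DCs and at 123 against 80.5 CPM with MDSCs. Cdkn1a, which encodes the inhibitor p21, was at 227 against 110 CPM and at 475 against 366 CPM. Mki67, the proliferation marker, was at 163 against 126 CPM with DCs and at 93.4 against 88.1 CPM with MDSCs. Of the oxidative phosphorylation genes, 0 of 60 were past 1.5-fold in each library. When levels were averaged over 3 equal groups of cells formed on the sum of their cell cycle genes, 28 of the 31 higher and 6 of the 7 lower genes were called again. From the group with the lowest sum to that with the highest, the high share was 29.8%, 40.0% and 34.9% with DCs. With MDSCs it was 10.3%, 11.7% and 13.4%.

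Several genes of naive and memory T cells, though a minority of the list, were lower in Tnfrsf9-high cells. Tcf7 was at 35.9 CPM in high cells, 86.4 CPM in cells at 1 to 4 and 129 CPM in cells at 0 with DCs (log2 ratio -1.85), and at 37.4, 63.1 and 83.6 CPM with MDSCs (-1.16). The high cells thus had nearly the same Tcf7 level in both libraries. Dapl1, a gene of less differentiated CD8+ T cells, was at 18.7 against 111 CPM with DCs and at 50.5 against 98.5 CPM with MDSCs. Ccr7, the lymph node homing receptor, was at 223 against 368 CPM and at 83.9 against 128 CPM. Of the whole list, 8 of 26 members were lower and 2 higher with DCs (median log2 ratio -0.28), and 4 of 21 were lower and 1 higher with MDSCs (-0.27). The higher ones were Il7r, the IL-7 receptor, with DCs, at 54.3 against 22.6 CPM, and Ly6c2, a surface marker of memory and effector cells, in both, at 46.9 against 19.1 CPM and 29.3 against 15.6 CPM. Klf2, a transcription factor of quiescent T cells, was at 132 against 144 CPM with DCs and at 22.2 against 20.8 CPM with MDSCs.

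By count, the interferon response list had the most lower members of the lists examined, in both libraries. Of this list, 18 of 35 members were lower and 1 higher with DCs (median log2 ratio -0.62), and 6 of 28 were lower and 1 higher with MDSCs (-0.27). With MDSCs this was close to the naive, memory and quiescence list, with 4 of 21 lower and a median of -0.27. Ifi27l2a, an interferon-induced gene, was at 292 against 782 CPM and at 173 against 420 CPM, and Irf1, a transcription factor of the pathway, at 47.3 against 75.9 CPM and 20.2 against 38.3 CPM. Gbp2, an interferon-induced GTPase, was at 74.4 against 202 CPM with DCs and at 22.3 against 47.4 CPM with MDSCs. The higher member in both was Isg20, an exonuclease gene, at 21.8 against 6.15 CPM and at 16.9 against 8.24 CPM. Also lower in both libraries were Ypel3, at 84.2 against 163 CPM and 45.7 against 93.1 CPM, and the histone variant gene H2afv, at 372 against 579 CPM and 229 against 369 CPM. With MDSCs, H2-Eb1, an MHC class II chain that CD8+ T cells rarely express, was at 11.1 CPM in high cells and 50.2 CPM in cells at 0, and with DCs it was at 0.65 and 1.32 CPM. Another class II chain, H2-Ab1, went the other way, at 22.3 against 12.7 CPM with MDSCs and, within 1.5-fold, at 300 against 209 CPM with DCs. Of the MHC class II list 1 of 5 members was thus higher and 1 lower with MDSCs, and with DCs 0 of 3 were higher and 1, H2-Oa, was lower.

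Inhibitory receptor and exhaustion genes were called in both directions. With DCs 2 of 8 members were higher and 1 lower (median log2 ratio 0.17, which took the other sign in some of 9 alternative settings), and with MDSCs 3 of 10 were higher and 1 lower (0.48). The lower members were Cd160, a receptor for HVEM, at 43.8 against 82.5 CPM with DCs, and Btla, which binds the same ligand, at 7.69 against 11.7 CPM with MDSCs. The members higher in both were Lilrb4a and Rbpj. Rbpj, a transcription factor of the Notch pathway placed on this list, was at 52.6 against 22.6 CPM with DCs and at 58.3 against 32.8 CPM with MDSCs. Ctla4 was higher with MDSCs, at 60.2 against 39.7 CPM, and lay within 1.5-fold with DCs, at 156 against 135 CPM. Lag3 was at 192 against 151 CPM with DCs and at 57.0 against 41.1 CPM with MDSCs. Pdcd1, which encodes PD-1, was at 3.85 CPM or less in all 4 classes. Havcr2 was at 1.67 CPM in high cells with DCs and listed at 0 in the cells at 0, and at 1.60 and 0.15 CPM with MDSCs.

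Some ratios were unlike in the 2 libraries, here among genes that reached 50 CPM in both. S100a6, a calcium-binding protein gene, was at 462 against 202 CPM with DCs (log2 ratio 1.196) and at 2231 against 2878 CPM with MDSCs (-0.37). Bnip3, a hypoxia-induced mitochondrial gene, was at 368 against 306 CPM with DCs (0.26) and at 93.3 against 28.6 CPM with MDSCs (1.70). Klrd1, which encodes the NK receptor chain CD94, was at 68.9 against 77.3 CPM (-0.16) and at 57.4 against 29.7 CPM (0.95). Tnfrsf4 and Dapl1 had ratios of the same sign in both libraries that lay further from 0 with DCs, by 1.31 for Tnfrsf4 and by 1.61 for Dapl1 on the log2 scale. Gzma had a log2 ratio larger by 1.12 with MDSCs. The remaining 4 of the 10 genes with the largest difference of ratio at that level were Ifitm2, Tspan32, Pfkl and Cish. Below it in either library, differences could be as large, as for Tnfrsf8 (-2.35, MDSC ratio minus DC ratio on the log2 scale) and Crip2 (-1.53). These 10 were chosen for this difference, so it is a description.

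**Figure D5:**
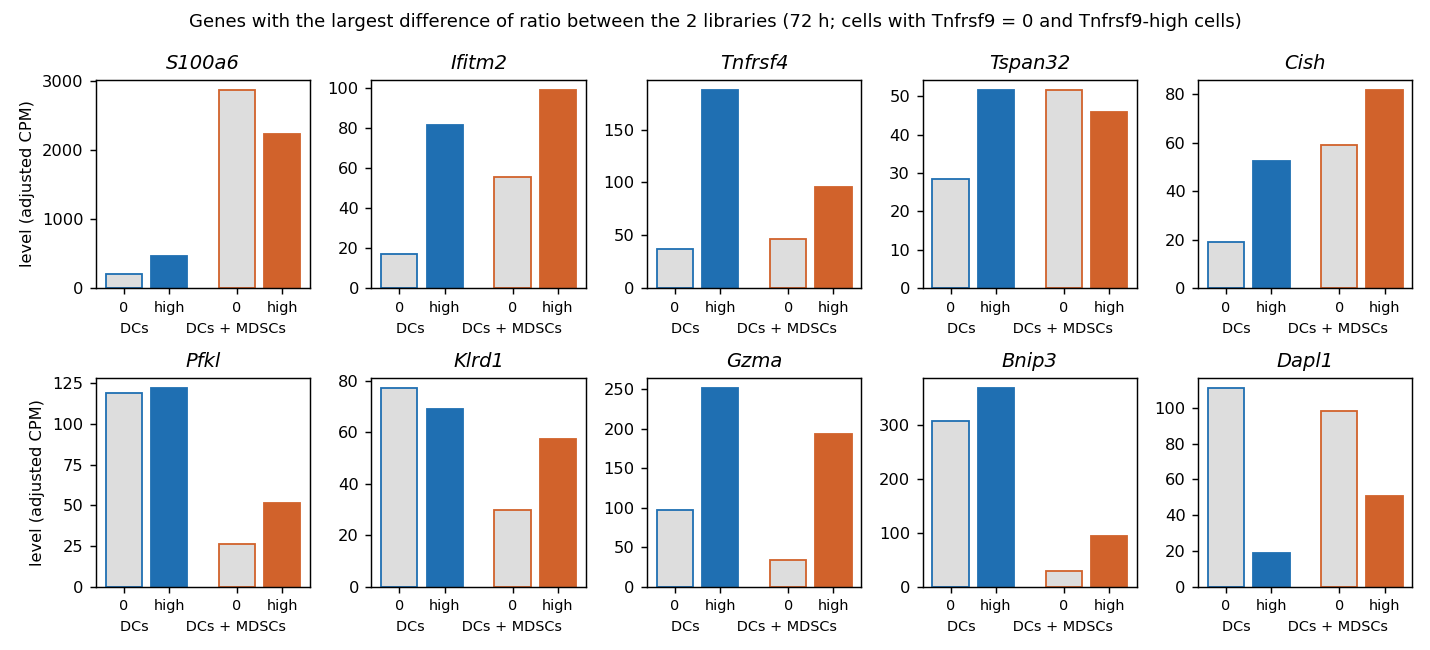
Level in adjusted CPM (y axis) in cells with Tnfrsf9 at 0 (grey) and in Tnfrsf9-high cells (filled), with DCs in blue and with DCs and MDSCs in orange, for the 10 genes whose log2 ratio differed most between the 2 libraries among those at 50 CPM or more in both; each bar is 1 class of 1 library. S100a6 is far higher with MDSCs in both classes, while Bnip3 is far lower there in both.

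The same rule was applied at 24 h in the table of all time points. There 1.8% of 2561 measured genes were higher and 0.586% lower in high cells with DCs, and 2.71% of 2801 and 1.14% with MDSCs. Of the 31 genes higher at 72 h in both libraries, 22 reached 50 CPM at 24 h with DCs, of which 7 were higher and 0 lower, and 23 with MDSCs, of which 8 were higher and 0 lower. Gzma showed the widest gap of these genes, at 92.2 against 2.02 CPM with DCs and at 100.4 against 2.61 CPM with MDSCs. Gzmb was at 1735 against 754 CPM and at 3827 against 1241 CPM, Il2rb at 101 against 67.2 CPM and 137 against 60.7 CPM, and Tnfrsf18 at 328 against 158 CPM and 229 against 124 CPM. Tnfrsf4 was at 194 against 137 CPM and 94.0 against 109 CPM, and Il2ra at 189 against 147 CPM and 215 against 164 CPM, both within 1.5-fold. Of the 7 lower genes 5 reached 50 CPM in each 24 h library. Of these 0 were lower with DCs and 1 with MDSCs, Dapl1, at 29.9 against 60.1 CPM. Ifi27l2a was higher at 24 h, at 222 against 88.4 CPM with DCs and at 176 against 67.6 CPM with MDSCs, the opposite of 72 h.

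Promoter windows were found for 28 of the 31 genes higher in both libraries. Of these, 15 (53.6%) had a window with the NF-kB motif, against 66.2% of the 9981 genes of the table with a RefSeq window. The AP-1 motif was found for 4 genes (14.3% against 5.23%), namely Ctla2b, Gzmb, Hspa5 and Mt2, and the STAT5 motif for 2 (7.14% against 7.18%), namely Shmt2 and Tnfrsf18. Of the 7 lower genes 3 had a window, of which 2 held the NF-kB motif and none the others. These shares describe letters in the windows, and no binding was measured.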

How the data were processed

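Libraries of sorted OT-I CD8+ T cells were prepared with the 10x Genomics platform per the labels' protocols, and the submitters' processing notes name Cell Ranger 2.0.1, Seurat (no version) and the mm10 build. The authors' 72 h table (13601 genes, 6868 cells) is deposited on a natural log scale. Each value is ln(1 + n), where n is whole to within 1e-06 in every case (0 exceptions). The step by which the authors adjusted n is not stated. The total per cell is nearly constant, which barred count models, thinning and doublet callers. Doublets remain in the data. Libraries were taken from the deposited cell annotation.

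Classes were formed within each library, adjusted counts summed per class and expressed per 1000000 (CPM). Calls needed 1.5-fold at 50 CPM or more in either class, and list members 10 CPM. No test was possible across single libraries. Tnfrsf9 chose the cells, so it was left out of all counts, and genes that vary with it are described, not tested. The members, 34 gene lists, 8 lists of cell type markers, naming rule and alternatives were chosen with earlier results of these data known. The rule named the 15 genes in each direction with the largest ratio shared by both libraries, the 6 largest per library and direction, up to 2 members per list and direction at 20 CPM or more, 46 chosen genes and the 10 genes whose ratio differed most between libraries. Outside that rule, chosen after values were seen, are Vim, Tgfb1, Pdia6, Slc3a2, Ctla2b, Shmt2, the other genes called higher in both libraries, Ldha, Tpi1, Syt11, Btla, Lilrb4a, Icos, Ccnd3, Ccne2, Cdc25a and marker genes at or near 0. A member of the genes called lower in both libraries is counted but not reported here.

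GENCODE M21 gave positions for 13160 symbols and RefSeq (GRCm38.p6) promoter windows for 9981. The rule for calls was run on simulated Poisson counts with known folds, as a check of the code only. Such counts are unlike the adjusted counts, so the run gives no error rate for these data. Python 3.11.15, numpy 2.4.6, scipy 1.17.1, pandas 2.3.3 and matplotlib 3.10.9 were used. Intervals are exact 95% binomial ones and cover counting error of cells only. The alternatives were the table of all time points, high from 3 or 8, levels from mean log values, centred ratios, another total, minimum levels of 10 and 200 CPM, averaging over 3 groups of cells by genes above 0 or cell cycle, and leaving out cells with 3 markers of another type.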

Additional observations from a re-analysis of the deposited data

How the results depend on the processing

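No paired analysis was possible because each group was 1 library, and for the same reason no replicate could be left out. The depth of a cell is unknown, so no limit from depth can be given for a single gene. Values are given in the order higher with DCs, higher with MDSCs, higher in both, lower with DCs, lower with MDSCs, lower in both, against 95, 62, 31, 44, 22 and 7 as reported. Only counts that moved by over 1.5 times are given, and the cause was not tested unless the setting itself changes which genes are measured. At a minimum of 10 CPM, which admits more genes, the counts were 651, 272, 137, 123, 66 and 22, and at 200 CPM, which admits fewer, 21, 13, 6, 12, 4 and 2. With the high class from a count of 3, the genes higher with MDSCs fell to 26, higher in both to 14, lower with DCs to 28 and lower with MDSCs to 13. With the high class from a count of 8, higher with MDSCs came to 154, higher in both to 56 and lower with MDSCs to 41. With a total that leaves out ribosomal protein and mitochondrial genes, 143 were higher with DCs, 92 lower with DCs, 46 lower with MDSCs and 22 lower in both. Centred ratios left 40 genes higher with MDSCs. Averaging over 3 groups of cells by genes above 0 left 38 genes higher with MDSCs and 28 lower with DCs.

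The share of high cells was 56.9% with DCs and 27.5% with MDSCs from a count of 3, and 15.7% and 3.34% from a count of 8. In the table of all time points it was 10.7% with MDSCs. Of 148 log2 ratios past 1.5-fold among the named genes, 127 to 145 stayed past it in each of 9 settings, and 1 reversed: Ccl5 with DCs, 0.87 in the 72 h table and -0.25 in the table of all time points. Of the 31 genes higher in both libraries, 29 were called again in that table and 14 with the high class from a count of 3. The total without ribosomal protein and mitochondrial genes kept 21, and Tnfrsf18, Vim and Pdia6 were among those lost. Centred ratios kept 24, with Tnfrsf18 again lost. Levels from mean log values also kept 24, losing Asns, Degs1, Gzma, Ifitm2, Lgals3, Prdx4 and Rbpj. Among the 7 lower genes, Ccr7 was lost with the high class from 3 or 8. It was also lost with both averages over 3 groups of cells.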

Other observations

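A few further genes named by the same rule are given here by their levels. Ltb4r1, which encodes a receptor for the lipid mediator leukotriene B4, was at 52.95 CPM in high cells and 9.22 CPM in cells at 0 with DCs, and at 36.3 and 10.9 CPM with MDSCs. Prdm1, which encodes the effector regulator Blimp-1, was at 14.3 and 2.41 CPM with DCs and at 3.85 and 1.77 CPM with MDSCs. Osm, a member of the IL-2 and STAT5 target list that encodes the cytokine oncostatin M, was at 21.9 and 7.46 CPM with DCs and at 20.8 and 9.34 CPM with MDSCs. Among genes lower with MDSCs, the metabolic enzyme gene Dcxr was at 100.2 CPM in high cells and 241 CPM in cells at 0, and at 15.7 and 21.3 CPM with DCs. Crip2, a LIM domain gene, was at 26.9 and 76.0 CPM with MDSCs and at 9.66 and 9.44 CPM with DCs. Ldhb, the other lactate dehydrogenase chain and the lower member of the glycolysis list in both libraries, was at 9.38 against 18.2 CPM with DCs and at 47.9 against 95.3 CPM with MDSCs.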
